A study of Mus musculus with 16 samples.

Results

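Solute carriers are the membrane proteins that move amino acids, sugars, ions, metals, vitamins and metabolites across the cell surface and the membranes of organelles, and their families are numbered by sequence, each with its own range of substrates. The genes described here are the autosomal genes whose symbol is Slc followed by a number and whose start lies at the centre of one of the 10 kb windows in the deposited counts. There were 58 of them among 3925 genes, 3789 of these autosomal, while the RefSeq annotation of GRCm38.p6 holds 371 autosomal Slc symbols. They belong to 9 substrate classes, the largest being carriers of amino acids and peptides (14 genes) and the mitochondrial carriers of the Slc25 family (13 genes). One gene that fits the symbol rule, Slc9a3r1, codes for a scaffold protein and not for a carrier.

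Histone marks, 4 in all, were measured by chromatin immunoprecipitation and sequencing in mesenchymal stromal cells of the endosteum, the inner surface of bone, of C57BL/6J mice. Control cells (WT) carried Bap1fl/fl alone, and the knockout cells (cKO) were Prx1-cre;Bap1fl/fl, in which Cre driven by the Prx1 promoter, active in limb mesenchyme, deletes Bap1. Both genotypes therefore carried the floxed allele, and no age was stated in the labels. Each mark had 2 WT and 2 cKO libraries, 16 in all. The labels do not tie a group's libraries to different animals; p-values therefore reflect only how far these libraries differ, possibly for technical reasons. BAP1 is the enzyme that removes ubiquitin from a lysine of histone H2A. That ubiquitin (H2AK119ub1) is placed by Polycomb repressive complex 1, and the trimethylation of a lysine of histone H3 (H3K27me3) by Polycomb repressive complex 2; both lie on silent promoters. H3K4me3 and H3K27ac mark active ones. For H3K4me3 and H3K27ac the antibody field and the title are swapped against each other, and the title was used.

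Levels are CPM, counts scaled to the library's autosomal total with TMM factors, summed over the promoter, the 4 kb centred on the gene start. All promoters have the same length, so levels compare between genes. Changes are log2 ratios of cKO over WT ± SE from edgeR's quasi-likelihood test with Benjamini-Hochberg adjustment over all promoters, and "rose" and "fell" are used only at an adjusted p at or under 0.05. The deposited counts summed to between 1283020 and 10101047 per library, the H3K27me3 libraries being the shallowest and the H3K4me3 libraries the deepest, and the median count over the members' promoters ran from 108 in both H3K27me3 WT libraries to 1959.5 in H3K4me3 cKO replicate 2. Of the stromal marker genes, 9 of 13 had a window, and their WT H3K4me3 levels had a median at the 66.9th percentile of autosomal promoters and reached the 97.8th. Summed over the 9, H3K4me3 was 2638 and 2380 CPM in WT and 875.9 and 835.8 CPM in cKO, and it fell at 8 of them. Of 10 blood markers only Cd68 had a window, with 35.92 and 25.58 CPM of H3K4me3 in WT and 23.74 and 30.73 in cKO, and none of the 7 endothelial markers had one. H3K4me3 also fell at both measured adipocyte genes, Fabp4 and Pparg (summed, 618.5 and 599.1 CPM in WT and 67.9 and 73.39 in cKO), and at both measured osteoblast genes, Alpl and Spp1 (177.4 and 168.9 against 27.22 and 41.11). It rose at Sox9, a chondrocyte gene (425.8 and 416.0 against 773.5 and 771.7). The part of these shifts in the results below was not tested, and fewer cells of a type cannot be told apart from less of a mark per cell.

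Of the 58 members, 57 passed the filter on low counts in each mark. The exception was Slc25a37, a mitochondrial iron importer, whose 10 kb window held 0 counts in all 16 libraries, as did the promoters of 3 other genes, and it is only listed at 0. H3K4me3 rose at 31 of the 57 promoters tested and fell at 12, beside 41.1% and 31.5% of autosomal promoters. H3K27ac rose at 20 and fell at 15, beside 31.6% and 28.7%. H3K27me3 rose at 13 and fell at 11, beside 12.9% and 13.7%. H2AK119ub1 rose at 13 and fell at 7, beside 17.3% and 13.7%. In percent of the members tested, H3K4me3 rose at 54.39% and fell at 21.05%, H3K27ac rose at 35.09% and fell at 26.32%, H3K27me3 rose at 22.81% and fell at 19.3%, and H2AK119ub1 rose at 22.81% and fell at 12.28%. The median change of the members was 0.34 in H3K4me3 (0.05 over autosomal promoters), 0.21 in H3K27ac (0.02), -0.06 in H3K27me3 (0.05) and 0.06 in H2AK119ub1 (0.04). These shares and medians are descriptions. Calls were made in all 4 marks at 4 members, in 3 marks at 22, in 2 marks at 13 and in 1 mark at 14. The number of marks called was not counted over autosomal promoters, so these counts describe the members alone. Slc12a1, Slc38a9, Slc43a2 and Slc7a7 were called in no mark.

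**Figure D1:**
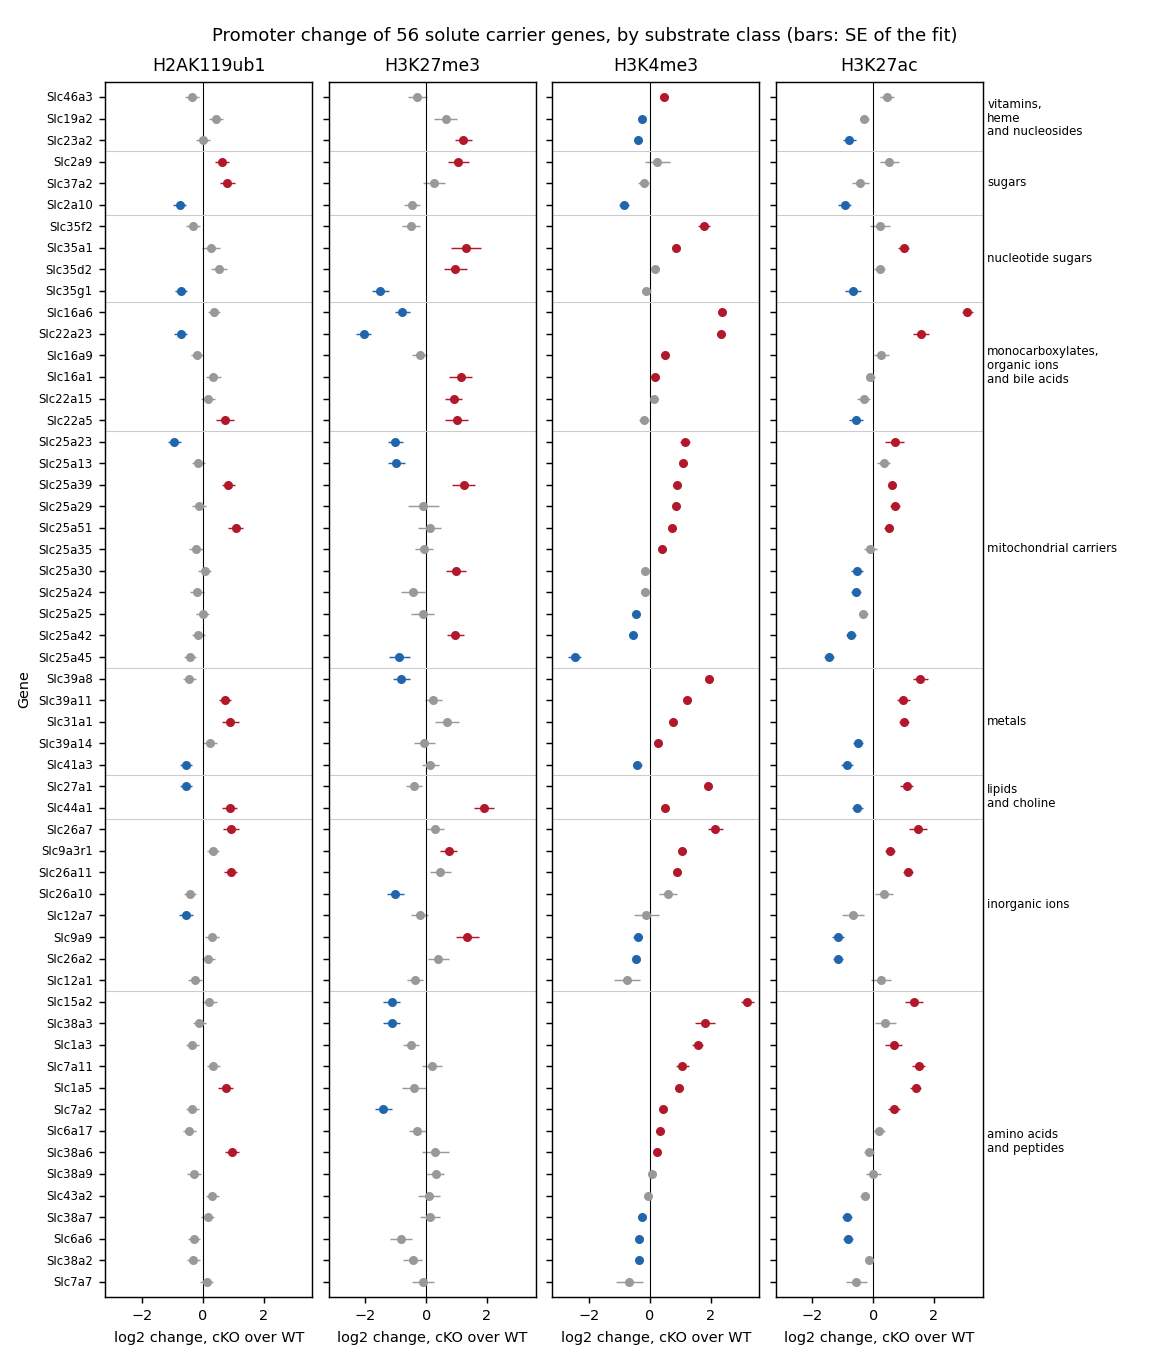
Log2 change of cKO over WT in promoter counts (x axes, with the SE of the fit) for 56 of the 57 members tested (y axis, grouped by substrate class and ordered by H3K4me3 change), 1 panel per mark. Red points rose, blue points fell and grey points did not pass the test. H3K4me3 has 30 red and 12 blue points, and the points farthest from 0 are Slc15a2 at 3.21 and Slc25a45 at -2.47.

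The widest gain of H3K27me3 was at Slc44a1, the gene of a choline transporter, and the widest loss at Slc22a23, an organic ion transporter family member with no settled substrate. The largest loss of the active marks was at Slc25a45, a mitochondrial carrier. The bases just before these gene starts are shown because these genes had the lowest p among the members for those changes, with CpG content as a point of comparison. Each is the 250 bases upstream of the start, 5′ to 3′ on the gene's strand, from RefSeq on GRCm38.p6, with every CG, which reads the same on both strands, in capitals. The places are chr4:53440163-53440412 on the plus strand for Slc44a1, chr13:34345219-34345468 on the minus strand for Slc22a23 and chr19:5877572-5877821 on the plus strand for Slc25a45.
Slc44a1: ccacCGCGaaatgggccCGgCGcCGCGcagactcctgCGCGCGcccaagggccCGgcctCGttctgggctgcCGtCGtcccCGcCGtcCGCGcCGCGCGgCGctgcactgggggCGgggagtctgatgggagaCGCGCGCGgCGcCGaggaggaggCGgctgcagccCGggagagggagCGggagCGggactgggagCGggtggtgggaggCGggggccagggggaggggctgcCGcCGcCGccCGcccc
Slc22a23: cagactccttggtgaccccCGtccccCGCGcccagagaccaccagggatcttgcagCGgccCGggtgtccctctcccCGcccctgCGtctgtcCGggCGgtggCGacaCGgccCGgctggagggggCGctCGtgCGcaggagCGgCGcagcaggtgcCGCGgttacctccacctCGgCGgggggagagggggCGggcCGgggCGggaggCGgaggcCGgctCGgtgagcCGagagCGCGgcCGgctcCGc
Slc25a45: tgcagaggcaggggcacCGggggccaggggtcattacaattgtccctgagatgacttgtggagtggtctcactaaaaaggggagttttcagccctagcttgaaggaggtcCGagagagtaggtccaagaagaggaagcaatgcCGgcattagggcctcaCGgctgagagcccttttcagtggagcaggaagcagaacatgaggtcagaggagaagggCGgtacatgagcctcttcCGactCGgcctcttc
The Slc44a1 stretch holds 38 CG with 81.2% G and C, and 1.875% of the 32851 RefSeq promoters of that length hold as many. Slc22a23 has 32 CG and 78.4% G and C, reached by 4.584% of promoters. Slc25a45 has 7 CG and 56.4% G and C, reached by 46.3%, and any CG at all is found in 92.13%. Slc16a6, the gain of lowest p in both active marks, had no entry. Over 300 bases from 250 before to 50 after the start, 41 members had an entry and held 3 to 45 CG with a median of 21, against 20 for the 2471 autosomal genes with a window and an entry. All 32851 RefSeq promoters held a median of 7, so the shares above refer to a set poorer in CG than the genes with a window. The 11 members with an entry where H3K27me3 rose held a median of 29 CG and the 8 where it fell a median of 13. Over autosomal genes the medians were 22 for both directions.

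In WT cells the members covered the range from Polycomb-marked to active promoters. Of 58, 10 lay in the top 10% of autosomal promoters by WT H3K27me3 (17.24%), 7 by H2AK119ub1 (12.07%), 6 by H3K27ac (10.34%) and 2 by H3K4me3 (3.448%). Among those with most H3K27me3 were Slc22a23 and Slc16a6, a member of the monocarboxylate transporter family, at the 99.2nd and 98.5th percentiles, and Slc1a3, a glutamate transporter. Those at the top of H3K4me3 were Slc38a2, which takes up neutral amino acids, at 630.9 and 648.9 CPM, and Slc6a6, the taurine transporter, at 529.4 and 522.5 CPM. The 20 members above the 75th percentile of WT H3K27me3 held 10 of the 11 losses of that mark and none of its gains, and H3K4me3 rose at 14 of them. Below the 25th percentile there were 12 members, counting Slc25a37 at 0, among them 7 of the 13 gains of H3K27me3 and no loss. The level and the change share the WT libraries, so these counts are a description. They were made for the members only, and autosomal promoters of the same WT levels were not counted beside them.

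H3K27me3 and H3K4me3 were called in opposite directions at 11 members. H3K27me3 fell while H3K4me3 rose at 8 of them (14.04% of members tested, 9.389% of autosomal promoters): Slc22a23, Slc7a2, Slc38a3, Slc15a2, Slc25a23, Slc25a13, Slc39a8 and Slc16a6. H3K27me3 rose while H3K4me3 fell at 3 (5.263% and 5.228%): Slc23a2, Slc9a9 and Slc25a42. Both rose at 5 (8.772% and 4.908%), Slc16a1, Slc25a39, Slc35a1, Slc44a1 and Slc9a3r1, and both fell only at Slc25a45. Across the 57 members the 2 changes correlated at Pearson r = -0.28 (-0.25 over 3749 autosomal promoters), a description across genes from separate libraries.

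**Figure D2:**
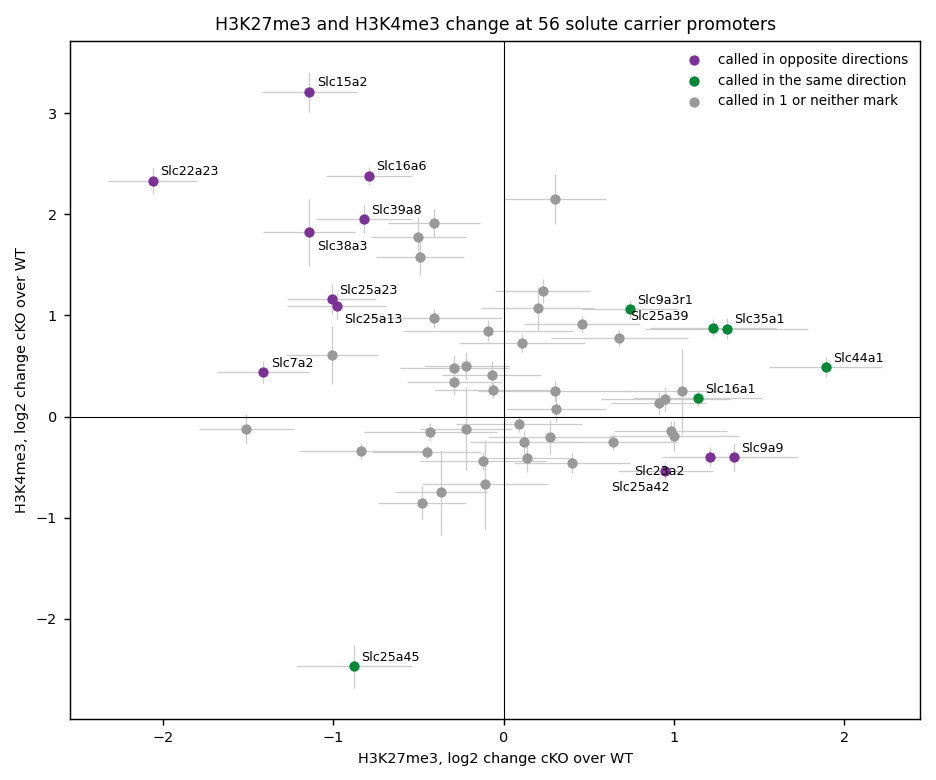
H3K27me3 change (x axis) against H3K4me3 change (y axis), both log2 of cKO over WT with the SE of the fit, for 56 of 57 members. Purple points were called in opposite directions, green points in the same direction, and grey points in 1 or neither mark. Slc22a23 lies farthest to the left at -2.06 and Slc44a1 farthest to the right at 1.89.

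Slc22a23 showed the fullest exchange. Its H3K27me3 was 594.7 and 681.4 CPM in WT and 152.9 and 152.5 CPM in cKO, a change of -2.06 ± 0.26 (adjusted p = 4.07e-13). H3K4me3 was 49.94 and 52.43 CPM in WT and 268.1 and 247.9 CPM in cKO, a change of 2.33 ± 0.13 (adjusted p = 3.5e-65). The groups stood well apart in both marks. H3K27ac rose by 1.57 ± 0.25, from 34.65 and 32.85 to 89.62 and 110.2 CPM, and H2AK119ub1 fell by 0.72 ± 0.21, from 187.2 and 177.3 to 110.9 and 110.7 CPM. The loss of H3K27me3 reached both flanks: summed over the stretch from 5 to 2 kb upstream, the group mean was 217.1 CPM in WT and 75.68 CPM in cKO, and from 2 to 5 kb downstream 218.7 and 56.96 CPM. H3K4me3 in that upstream stretch was 9.441 CPM in WT and 7.744 CPM in cKO.

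Carriers of amino acids and peptides held 3 of the 8. At Slc7a2, a transporter of arginine and other cationic amino acids, H3K27me3 was 304.3 and 313.1 CPM in WT and 117.7 and 114.6 CPM in cKO (-1.41 ± 0.27, adjusted p = 4.52e-06). Its H3K4me3 went from 148.2 and 172.3 to 185.7 and 247.2 CPM (0.44 ± 0.11, adjusted p = 0.000186), a smaller shift with the lowest cKO value close above the highest WT value. Slc38a3 codes for a glutamine transporter. H3K27me3 there was 352.5 and 323.2 CPM in WT and 124.4 and 181.7 CPM in cKO (-1.14 ± 0.27), and H3K4me3 rose from 7.088 and 14.0 to 38.46 and 36.8 CPM (1.82 ± 0.33), still at only the 20.1st percentile of autosomal promoters. The tallest cKO signal of H3K4me3 in the Slc38a3 window lay 1975 bp downstream of the start. That gain ranged from 0.65 to 2.4 over the 14 alternatives and passed under 13. Slc15a2, a proton-coupled importer of small peptides, had the largest H3K4me3 gain of all members. Its H3K4me3 was 16.59 and 13.36 CPM in WT and 145.1 and 130.3 CPM in cKO (3.21 ± 0.20, adjusted p = 3.49e-56), and H3K27me3 was 205.1 and 219.1 CPM in WT and 77.07 and 115.3 CPM in cKO (-1.14 ± 0.28). Most of the gain lay past the start: the group mean of the CPM summed over the first 2 kb downstream was 7.383 in WT and 117.2 in cKO, against 7.595 and 20.51 over the 2 kb upstream.

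Slc16a6 carried the lowest p of all members in H3K4me3 and H3K27ac. H3K4me3 was 103.9 and 114.4 CPM in WT and 631.9 and 508.8 CPM in cKO (2.38 ± 0.09, adjusted p = 4.69e-134), and H3K27ac was 48.58 and 49.67 CPM in WT and 442.3 and 396.0 CPM in cKO (3.09 ± 0.18, adjusted p = 3.22e-16). In cKO it stood at the 94.6th percentile of H3K4me3, against the 36.8th in WT. H3K27me3 fell from 594.7 and 454.5 to 302.2 and 305.1 CPM (-0.79 ± 0.25, adjusted p = 0.00943), which left it at the 96.7th percentile. The stretch from 2 to 5 kb downstream held a group mean of 178.1 CPM of H3K27me3 in WT and 194.6 CPM in cKO. Without either cKO library the H3K27me3 loss no longer passed the test, at -0.78 and -0.80.

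Of the other 3, Slc39a8 takes up zinc and manganese, Slc25a23 is the mitochondrial ATP-Mg/phosphate carrier and Slc25a13 the mitochondrial aspartate/glutamate carrier. H3K4me3 at Slc39a8 went from 55.26 and 63.24 to 253.3 and 206.4 CPM (1.95 ± 0.14), and H3K27me3 from 198.2 and 153.1 to 109.8 and 88.14 CPM (-0.82 ± 0.28). Slc25a23 changed in all 4 marks: H3K27me3 fell by 1.01 ± 0.26, from 457.7 and 418.0 to 236.1 and 198.6 CPM, and H2AK119ub1 by 0.93 ± 0.21, from 191.0 and 178.3 to 109.6 and 84.42 CPM, while H3K4me3 rose by 1.16 ± 0.15 and H3K27ac by 0.70 ± 0.30. At Slc25a13, H3K4me3 rose by 1.09 ± 0.13, from 91.5 and 99.38 to 206.2 and 199.8 CPM, H3K27me3 fell by 0.98 ± 0.29, and H3K27ac, at 98.85 and 80.15 CPM in WT and 115.9 and 109.9 CPM in cKO, was not called (0.34 ± 0.20, adjusted p = 0.152). Leaving out a single cKO library ended the H3K27me3 call at Slc15a2 (-0.88) and Slc38a3 (-0.89) without replicate 1, at Slc25a13 (-0.91) without replicate 2 (and at -0.72 without WT replicate 1), and at Slc25a23 and Slc39a8 without either. The H3K27me3 losses of Slc22a23, Slc35g1 and Slc7a2 and the gain of Slc44a1 passed under all 14 alternatives.

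**Figure D3:**
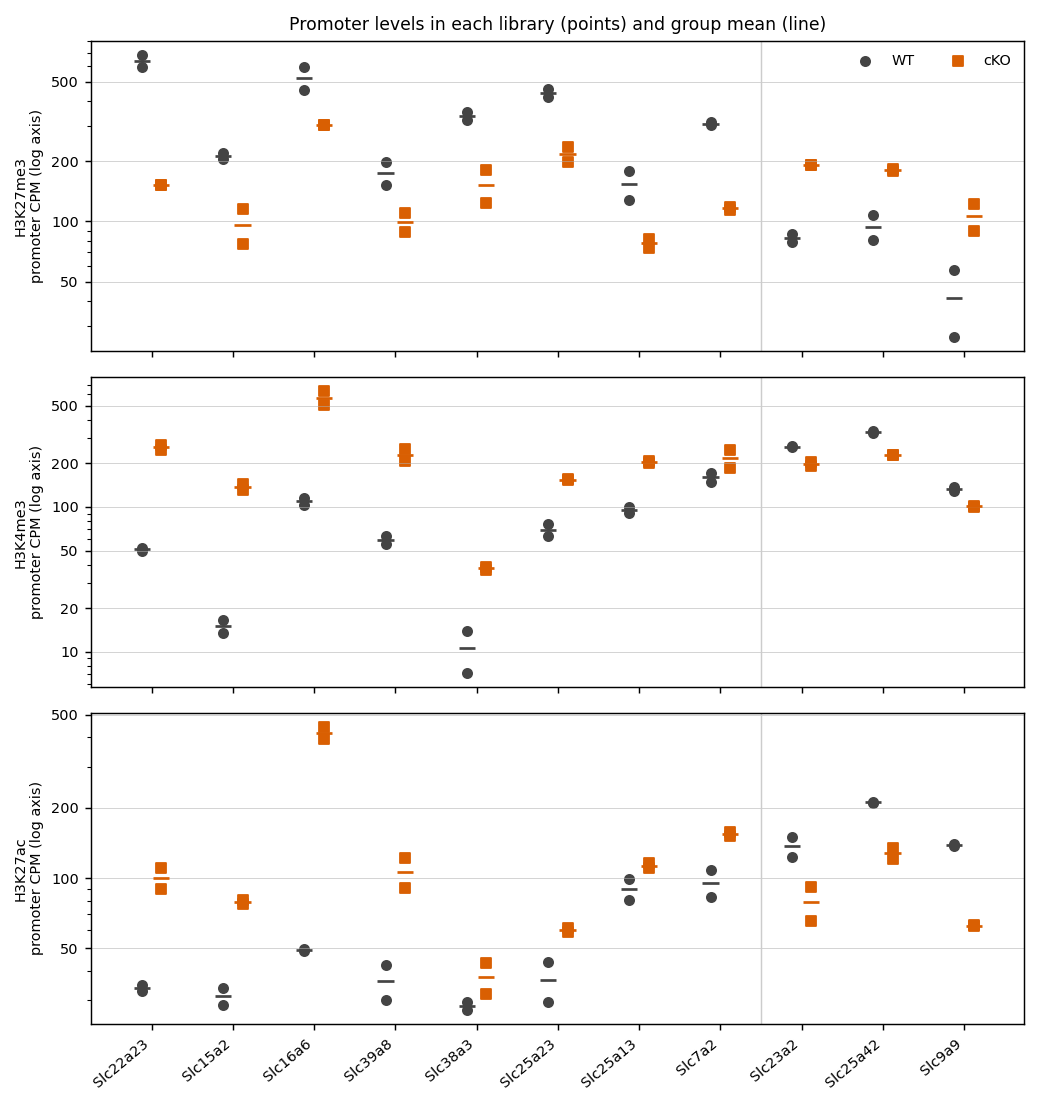
Promoter CPM (log y axes) of H3K27me3, H3K4me3 and H3K27ac in each WT library (grey circles) and cKO library (orange squares), with lines at the group means, for the 8 members where H3K27me3 fell and H3K4me3 rose and, right of the grey line, the 3 with the reverse. At Slc22a23 the cKO libraries lie at 152.9 and 152.5 CPM of H3K27me3, below the WT libraries at 594.7 and 681.4.

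In the reverse exchange H3K4me3 changed by -0.40 to -0.54, against 0.44 to 3.21 at the 8 members above. H3K27ac changed by -0.72 to -1.15, against 0.34 to 3.09 at those 8, where Slc25a13 and Slc38a3 were not called. Slc23a2 codes for an ascorbate transporter, Slc9a9 for a sodium/proton exchanger of endosomes and Slc25a42 for a mitochondrial coenzyme A carrier. H3K27me3 at Slc23a2 was 86.19 and 79.25 CPM in WT and 191.2 in both cKO libraries (1.21 ± 0.28, adjusted p = 0.00018), and H3K4me3 went from 260.0 and 262.8 to 191.0 and 203.9 CPM (-0.40 ± 0.10). Over its 2 kb upstream, group means were 56.79 CPM in WT and 150.1 CPM in cKO for H3K27me3. For H3K4me3 they were 65.99 and 67.91 CPM. Over the 2 kb downstream, H3K27me3 was 25.93 and 41.13 CPM and H3K4me3 195.4 and 129.6 CPM. The 2 changes of Slc23a2 thus lay mostly on different sides of its start. Slc9a9 gained H3K27me3 from 56.89 and 26.42 to 89.2 and 122.7 CPM (1.35 ± 0.38, adjusted p = 0.00235) and lost H3K27ac from 137.6 and 139.8 to 62.28 and 62.94 CPM (-1.15 ± 0.20, adjusted p = 1.09e-05). At Slc25a42, H3K27me3 rose from 107.7 and 80.81 to 183.9 and 179.0 CPM (0.95 ± 0.28), and H3K4me3 fell from 336.4 and 322.5 to 227.0 and 227.3 CPM (-0.54 ± 0.09, adjusted p = 2.58e-08). In each of these changes over the whole promoter the cKO libraries lay on one side of both WT libraries. Of autosomal promoters, 31.95% had both cKO libraries above WT in H3K27me3. Both lay below WT at 39.97% in H3K4me3 and 38.85% in H3K27ac. The Slc9a9 gain of H3K27me3 failed without WT replicate 2 (0.89) or cKO replicate 2 (1.10), and that of Slc25a42 without cKO replicate 1 (0.93). Relative to the neighbours, the H3K4me3 losses of Slc25a42 (-0.02, adjusted p = 0.89) and Slc23a2 (-0.16, adjusted p = 0.171) and the H3K27ac loss of Slc25a42 (-0.20, adjusted p = 0.345) did not pass, while both losses of Slc9a9 did. H3K27me3 also rose with a loss of H3K27ac alone at Slc22a5, the carnitine transporter (1.00 ± 0.38 and -0.58 ± 0.23), and Slc25a30 (0.98 ± 0.33 and -0.52 ± 0.20), and neither pair of calls held under all alternatives.

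Slc44a1 and Slc25a39 changed in all 4 marks but not as an exchange. Slc44a1 H3K27me3 was 30.17 and 55.94 CPM in WT and 158.4 and 163.4 CPM in cKO (1.89 ± 0.33, adjusted p = 1.47e-07), moving from the 10.7th to the 83.9th percentile. H2AK119ub1 rose from 68.81 and 73.89 to 134.8 and 128.9 CPM (0.89 ± 0.24). H3K4me3 rose as well, from 185.1 and 197.8 to 263.1 and 274.3 CPM (0.49 ± 0.10), while H3K27ac fell from 157.3 and 146.6 to 120.9 and 91.03 CPM (-0.52 ± 0.19). Only Slc39a14, a zinc and iron importer, shared that split of the active marks, with H3K4me3 up by 0.26 ± 0.08 and H3K27ac down by 0.50 ± 0.15. The 2 make up 3.509% of members tested, beside 0.7179% of autosomal promoters. The H3K4me3 gain at Slc44a1 lay upstream, where the CPM summed over 2 kb averaged 74.05 in WT and 136.9 in cKO, against 117.3 and 131.8 over the 2 kb downstream. Taken relative to the change of its 20 nearest genes in the Polycomb marks, the H3K4me3 gain became -0.14 (adjusted p = 0.229). Slc25a39, which brings glutathione into mitochondria, rose in all 4 marks, by 0.84 ± 0.21 in H2AK119ub1, 1.23 ± 0.37 in H3K27me3, 0.88 ± 0.08 in H3K4me3 and 0.61 ± 0.14 in H3K27ac. Its H3K27me3 was 49.99 and 42.74 CPM in WT and 128.0 and 89.49 CPM in cKO, and its H3K4me3 340.2 and 329.6 CPM in WT and 627.9 and 603.8 CPM in cKO. Relative to its neighbours, the H3K4me3 gain was 0.21 (adjusted p = 0.0123) and the H3K27me3 change 0.52 (adjusted p = 0.366).

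**Figure D4:**
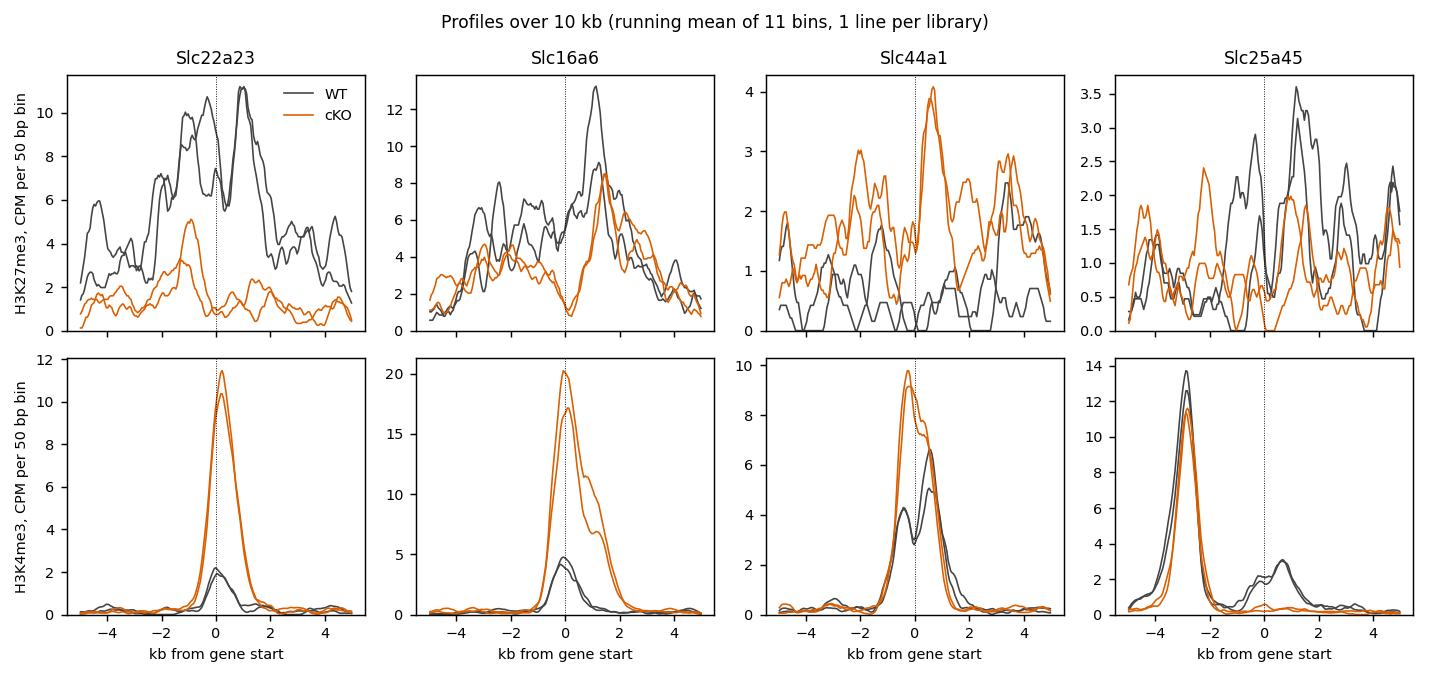
CPM per 50 bp bin (running mean of 11 bins, y axes from 0) against the distance from the gene start in kb (x axes) for H3K27me3 (top) and H3K4me3 (bottom) at 4 members, 1 line per library, WT in grey and cKO in orange. At Slc25a45 the tallest H3K4me3 peak of both genotypes lies upstream, at -2825 bp in WT and -2775 bp in cKO, and the low WT signal at the start itself is lower in cKO.

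Slc25a45 had the largest loss of both active marks. H3K4me3 was 113.6 and 98.62 CPM in WT and 22.32 and 16.34 CPM in cKO (-2.47 ± 0.21, adjusted p = 4.09e-31), and H3K27ac was 287.7 and 277.2 CPM in WT and 98.29 and 107.5 CPM in cKO (-1.46 ± 0.17, adjusted p = 5.09e-09). The tallest H3K4me3 signal in its window was not at its start but upstream, at -2825 bp in WT, 234 bp from the annotated 5′ end of Frmd8 on the other strand. Summed from 5 to 2 kb upstream the level was 288.2 and 256.9 CPM in WT and 204.2 and 220.8 CPM in cKO, while over the first 2 kb downstream it was 71.85 and 67.57 CPM in WT and 11.71 and 9.045 CPM in cKO. Its stretch printed above has the fewest CG of the 3 shown. H3K27me3 at the same promoter, at the 72.9th percentile in WT, fell as well (-0.88 ± 0.34, adjusted p = 0.0344), a call that failed under 8 of 14 alternatives.

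H3K4me3 and H3K27ac moved together at most members. All 20 members with more H3K27ac also had more H3K4me3 (35.09% of members tested, 28.72% of autosomal promoters), and 9 of the 15 with less H3K27ac had less H3K4me3 (15.79% and 22.2%). Across the 57 members the 2 changes correlated at r = 0.84, and at 0.82 over 3761 autosomal promoters. Beside Slc16a6, the members of lowest p for a gain of H3K27ac were Slc1a5, a glutamine and neutral amino acid transporter, Slc26a11, a sulfate transporter, and Slc7a11, the cystine/glutamate exchanger. H3K27ac at Slc1a5 was 167.1 and 109.6 CPM in WT and 386.6 and 334.7 CPM in cKO (1.39 ± 0.18, adjusted p = 6.66e-08). At Slc7a11 it was 50.62 and 69.37 CPM in WT and 195.0 and 143.4 CPM in cKO (1.49 ± 0.21, adjusted p = 3.13e-07), and at Slc26a11 it went from 144.4 and 156.6 to 336.9 and 325.2 CPM (1.14 ± 0.16). In all 3 the lowest cKO library was above the highest WT library, and H3K27me3 was not called. Such a separation in H3K27ac was found at 40.97% of autosomal promoters, and these genes were chosen for low p in the same values.

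Among the losses of H3K27ac, Slc26a2, the sulfate transporter that supplies cartilage matrix, went from 264.3 and 295.6 to 131.9 and 118.0 CPM (-1.16 ± 0.17, adjusted p = 2.72e-07), and Slc6a6 from 346.5 and 368.7 to 192.6 and 210.7 CPM (-0.83 ± 0.15, adjusted p = 2.08e-05). Slc2a10, a facilitative sugar transporter, lost H3K4me3 from 118.2 and 133.4 to 68.22 and 71.44 CPM (-0.85 ± 0.16, adjusted p = 1.19e-07) and H2AK119ub1 from 192.0 and 173.9 to 130.1 and 87.22 CPM (-0.76 ± 0.21), and its H3K27ac fell by 0.94 ± 0.22. H3K27me3 there was not called (-0.48 ± 0.26, adjusted p = 0.164), and relative to the neighbours neither the H2AK119ub1 change (-0.35, adjusted p = 0.255) nor that of H3K27ac (-0.52, adjusted p = 0.0526) passed. Slc25a25, a carrier of the ATP-Mg/phosphate kind, lost H3K4me3 from 408.9 and 333.7 to 272.2 and 272.9 CPM (-0.44 ± 0.09, adjusted p = 1.44e-06), and its promoter window overlaps that of Naif1, whose reads cannot be told apart. Slc35g1, of the nucleotide sugar transporter family, lost H3K27me3 from 277.5 and 206.7 to 89.2 and 80.68 CPM (-1.51 ± 0.28, adjusted p = 1.61e-06) and H2AK119ub1 from 191.5 and 165.0 to 116.0 and 101.9 CPM (-0.71 ± 0.21). There no active mark rose: H3K4me3 was 93.28 and 121.5 CPM in WT and 93.07 and 104.1 CPM in cKO, and H3K27ac fell (-0.66 ± 0.26, adjusted p = 0.028), a call that failed without any of 3 libraries.

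Gains of H3K4me3 without a call in H3K27me3 included Slc26a7, an anion exchanger, and Slc1a3. Slc26a7 went from 9.988 and 20.74 to 79.46 and 58.9 CPM (2.15 ± 0.25, adjusted p = 8.62e-17). Slc1a3 went from 39.95 and 36.27 to 104.0 and 123.9 CPM (1.58 ± 0.18, adjusted p = 1.29e-17), with H3K27me3 at 452.5 and 298.4 CPM in WT and 266.4 and 268.5 CPM in cKO (-0.49 ± 0.26, adjusted p = 0.147). The groups did not overlap in H3K4me3 at either gene, as at 45.53% of autosomal promoters with cKO above WT. At Slc26a10, of the same family as Slc26a7, H3K27me3 fell from 364.6 and 268.1 to 177.8 and 135.6 CPM (adjusted p = 0.00111), and neither active mark was called.

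By substrate class, H3K4me3 rose at 8 and fell at 3 of 14 carriers of amino acids and peptides, and H3K27me3 rose at none and fell at 3 of them. Over autosomal promoters the shares were 41.1% higher and 31.5% lower in H3K4me3 and 12.9% and 13.7% in H3K27me3, and the counts in these small groups are descriptions beside them. The 3 with less H3K4me3 were Slc38a2, Slc6a6 and Slc38a7, and of these only Slc6a6 and Slc38a7 had less H3K27ac. Relative to the neighbours none of these 3 H3K4me3 losses passed (-0.06, 0.12 and -0.10). Among the gains of this class, those of Slc38a6 and Slc6a17 did not pass either, and the others did. Among the 5 carriers of metals H3K4me3 rose at 4, Slc39a8, Slc39a11, Slc39a14 and the copper importer Slc31a1, and fell at Slc41a3, a magnesium transporter. The promoter window of Slc31a1 overlaps that of Fkbp15, whose reads cannot be told apart. Its tallest H3K4me3 signal lay upstream, at -575 bp in WT and -475 bp in cKO. Of the 6 carriers of monocarboxylates and organic ions it rose at 4, among them Slc16a1, the lactate transporter, by 0.18 ± 0.08, and fell at none. Both lipid and choline carriers gained H3K4me3, Slc27a1, a fatty acid transporter, from 42.53 and 62.61 to 206.7 and 190.4 CPM (1.91 ± 0.14). The classes with no gain or a single one were small: none of 3 sugar carriers rose and 1 fell, and of 3 carriers of vitamins, heme and nucleosides 1 rose and 2 fell. Of the 8 genes classed with inorganic ions, 3 were higher, the scaffold gene Slc9a3r1 among them, and 2 lower, and of 4 nucleotide sugar carriers 2 were higher and none lower. Differences between classes were not tested.

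The Slc25 family, the carriers of the inner mitochondrial membrane, had 12 promoters tested. H3K4me3 rose at 7 and fell at 3 with a median change of 0.57, H3K27ac rose at 5 and fell at 4 (0.12), H3K27me3 rose at 3 and fell at 3 (-0.08), and H2AK119ub1 rose at 3 and fell at 1 (-0.13). Autosomal promoters rose and fell at 41.1% and 31.5% in H3K4me3 and at 31.6% and 28.7% in H3K27ac. In H3K27me3 the shares were 12.9% and 13.7%, and in H2AK119ub1 17.3% and 13.7%. The largest H3K4me3 changes of the Slc25 family were at Slc25a23 (1.16) and Slc25a45 (-2.47). In the Slc38 family of sodium-coupled neutral amino acid transporters, H3K4me3 rose at 2 of 5 and fell at 2, with Slc38a3 at 1.82 and Slc38a2 at -0.35 ± 0.07, from 630.9 and 648.9 to 536.7 and 467.5 CPM. Relative to the neighbours the H3K4me3 change was 1.66 at Slc38a3 (adjusted p = 1.67e-06) and -0.06 at Slc38a2 (adjusted p = 0.464). H3K27ac in that family fell only at Slc38a7 and rose nowhere. As a comparison, 33 other transporter genes, chosen by symbol (ABC transporters, ATP-driven pumps, organic anion transporters and others), gained H3K4me3 at 16 (48.48%) and lost it at 9 (27.27%), and gained H3K27me3 at 7 (21.21%) and lost it at 4 (12.12%).

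H2AK119ub1, the substrate of BAP1, changed by between -0.93 and 1.16 over the members. Gains of low p were at Slc26a11, at Slc25a51, the mitochondrial NAD carrier, and at Slc38a6. At Slc26a11 the level was 80.35 and 124.1 CPM in WT and 182.1 and 203.5 CPM in cKO (0.92 ± 0.21, adjusted p = 0.000178). Slc25a51 went from 62.07 and 57.63 to 131.4 and 122.2 CPM (1.08 ± 0.25, adjusted p = 0.000304), and Slc38a6 from 73.62 and 63.05 to 129.3 and 136.6 CPM (0.96 ± 0.24, adjusted p = 0.000613). The cKO libraries were above both WT libraries in each, as at 35.56% of autosomal promoters. No member combined a gain of H2AK119ub1 with a loss of H3K27me3, a pair found at 0.1334% of autosomal promoters. A gain of both H2AK119ub1 and H3K4me3 was found at 10 members (17.54%, against 12.75% of autosomal promoters). H2AK119ub1 and H3K27me3 both rose at 4 members (7.018%, against 5.017% of autosomal promoters): Slc22a5, Slc25a39, Slc2a9, a urate and sugar transporter, and Slc44a1. Of these 4, H3K4me3 rose only at Slc25a39 and Slc44a1.

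Of the 13 gains of H2AK119ub1, 9 were on chromosomes 4 and 11, where 14 members were tested and none fell. On these 2 chromosomes 50.76% of 660 autosomal promoters rose in H2AK119ub1 and 70.2% of 661 in H3K4me3, the latter at 12 of the 14 members. On the other autosomes H2AK119ub1 rose at 4 and fell at 7 of 43 members (10.2% and 15.43% of promoters there), H3K4me3 rose at 19 and fell at 12 (34.9% and 34.96%), H3K27ac rose at 10 and fell at 13 (25.37% and 32.08%), and H3K27me3 rose at 8 and fell at 10 (10.68% and 14.92%). Neighbours moved with the members: around the 13 gains the median H3K27me3 change of the 20 nearest genes was above 0 at 12, with a median of 0.58. Taken relative to those neighbours, H2AK119ub1 was higher at 2 members and lower at 6, beside 5.962% and 8.171% of autosomal promoters. Without that offset 17.3% of autosomal promoters were higher and 13.7% lower. Of the 13 gains 2 passed, that of Slc22a5 at 1.06 (adjusted p = 0.00711). In H3K4me3, taken relative to the neighbours' mean change in both Polycomb marks, 23 of the 31 gains and 6 of the 12 losses passed. Of autosomal promoters, 33.5% were then higher and 25.92% lower, against 41.1% and 31.5% without the offset. Without cKO replicate 1, no member was called in H2AK119ub1 and 4 autosomal promoters rose and 8 fell in all. Without cKO replicate 2, a single member was called.

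**Figure D5:**
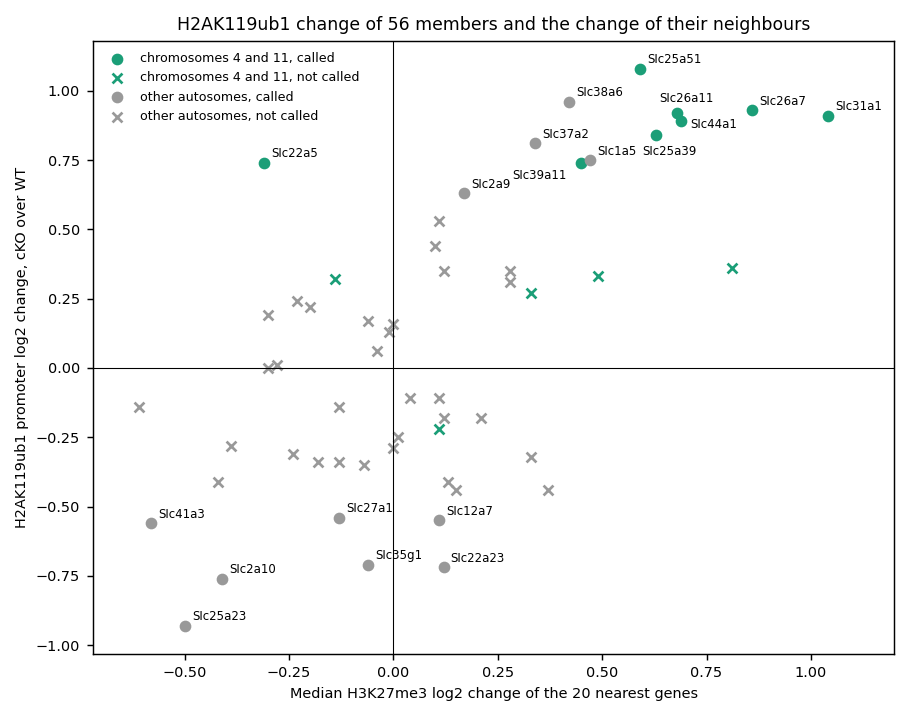
H2AK119ub1 promoter change of 56 of 57 members (y axis, log2 of cKO over WT) against the median H3K27me3 change of the 20 nearest genes (x axis, log2). Green marks members on chromosomes 4 and 11 and grey those on other autosomes; circles were called and crosses were not. Of the 12 members shown that rose, 8 are green, and Slc22a5 lies left of 0 at -0.31.

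The deposited table marks each gene UP or DOWN, but no contrast is stated; 30 members were marked UP (51.7%, against 48.8% of autosomal genes) and 28 DOWN. Of the 30 with the UP mark, 26 gained H3K4me3 and 1 lost it, beside 74.62% and 3.478% of autosomal UP promoters. Of the 27 DOWN genes tested, 5 gained and 11 lost it, beside 9.157% and 58.1%. For H3K27me3 the UP genes had 4 gains and 10 losses (8.584% and 22.64% of autosomal UP promoters), and the DOWN genes 9 gains and 1 loss (16.92% and 5.102%). What the mark rests on is unknown, so this division is no independent support. Slc44a1, with more H3K27me3 and less H3K27ac, was marked DOWN, and Slc6a6, with less of both active marks, was marked UP.

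Windows just outside the rule were those of Slc38a1, whose annotated start lay 525 bp from the centre, Slc17a9 (-686 bp) and Slc40a1 (950 bp); just inside lay Slc25a37 (432 bp) and Slc16a9 (177 bp). At Slc38a1, a glutamine transporter, all 4 marks were lower in cKO, with changes from -1.01 ± 0.26 in H3K27me3 to -0.80 ± 0.15 in H3K4me3. Slc17a9 went the other way and gained H3K4me3 (adjusted p = 2.31e-08), and Slc40a1 was not called in it (0.16 ± 0.15). The window of Slc5a3 has several names and was left out.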

How the data were processed

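Gene counts were taken from one deposited table. Per the file headers, its values are raw counts that the authors deposited for 785000 bins, each of 50 bp, so that 200 bins span the 10 kb around each of 3925 gene starts. GRCm38 is the build in the submitters' processing notes, which list bedtools 2.30.0, SAMtools 1.9, Picard 2.25.5, Bowtie2 2.4.5 and cutadapt 1.18 and give no settings. Runs of filled bins between empty ones were 3 bins long in 98.38% of runs under 6 bins, so a read entered about 3 bins; counted once, the autosomal totals were 407562 to 3313904 per library. They cover these windows only, and a change shared by every window cannot be detected. Input libraries were not used here, and single genes, 1 member among them, are counted but not reported by name.

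Symbols were assigned by position from RefSeq (GRCm38.p6), where a 5′ end on the window's strand lay within 500 bp of its centre. This named 3390 of 3925 windows (86.37%), and 125 (3.18%) at positions shifted by 20 kb. The members and the gene lists were chosen with earlier results of these data known. Groups came from the titles.

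Bins 61 to 140 were summed per gene. For each mark the 4 libraries were tested on all promoters in R 4.3.3 by edgeR 4.0.16 (glmQLFit, robust), with library sizes from autosomal bins, TMM factors from 10 kb windows, filterByExpr at a minimum count of 10 and a threshold of 0.05 on the Benjamini-Hochberg adjusted p. The tests were tried on simulated data. Named are, per mark, the 4 members of lowest p in each direction, those with H3K27me3 and an active mark in opposite directions, those called in all 4 marks, and the largest changes of families with 5 or more members; others were chosen after their values were seen. Sequences are those of the lowest p in each direction of H3K27me3, H3K4me3 and H3K27ac. The regional offset subtracts the median change of the 20 nearest genes, from the other Polycomb mark, or from the mean of both for the active marks.

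Alternatives were no TMM factors, TMM factors from promoters, DESeq2 1.42.0, no filter, promoters within 1 kb or 5 kb, 1 bin in 3, each library left out, all 16 libraries in 1 fit, the regional offset, a replicate block, members with shared windows left out and the top 5% for WT classes. Chosen after seeing the data were names within 2 kb, leaving out Slc9a3r1 and leaving out chromosomes 4 and 11.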

Additional observations from a re-analysis of the deposited data

How the results depend on the processing

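Of 122 calls at members, 4 of 24 in H3K27me3, 21 of 43 in H3K4me3, 15 of 35 in H3K27ac and 0 of 20 in H2AK119ub1 passed under all 14 alternative fits; the cause of the losses was not tested. Each library left out in turn, members higher and lower in cKO numbered 0 to 11 and 0 to 9 in H2AK119ub1 (without cKO replicate 1, 0 and 0; without cKO replicate 2, 1 and 0), 4 to 10 and 5 to 15 in H3K27me3 (without cKO replicate 1, 4 and 5; without cKO replicate 2, 6 and 5), 26 to 30 and 9 to 13 in H3K4me3, and 16 to 19 and 9 to 17 in H3K27ac (without WT replicate 1, 9 lower); a group left with 1 library is assumed to vary like the other. Within 1 kb, 5 rose and 3 fell in H2AK119ub1 (7.145% and 7.038% of autosomal promoters), and 5 rose in H3K27me3 (6.552%). In H3K4me3, 7 fell within 1 kb (23.89%) and 5 with all 16 libraries in 1 fit (21.49%). With the regional offset, 2 rose in H2AK119ub1 (5.962% of autosomal promoters), 8 in H3K27me3 (9.173%) and 13 in H3K27ac (23.48%). Without chromosomes 4 and 11, fewer members were counted. Of these, 4 rose in H2AK119ub1 (10.2% of promoters on the other autosomes), 8 in H3K27me3 (10.68%), 19 in H3K4me3 (34.9%) and 10 in H3K27ac (25.37%).

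Relative to neighbours the sign turned at Slc31a1 (H2AK119ub1 -0.13, H3K4me3 -0.13), Slc41a3 (H2AK119ub1 0.02, H3K4me3 0.12), Slc38a6 (H3K4me3 -0.22, adjusted p = 0.0395), Slc44a1 (H3K4me3 -0.14), Slc6a6 (H3K4me3 0.12), Slc25a39 (H3K27ac -0.06), Slc25a51 (H3K27ac -0.18) and Slc9a3r1 (H3K27ac -0.04). It also turned at Slc19a2 within 1 kb (H3K4me3 0.13) and at Slc37a2 within 5 kb (H2AK119ub1 -0.16). Without TMM factors the median H3K4me3 change of autosomal promoters went from 0.05 to -0.05. In that setting 27 members rose and 15 fell (37.24% and 37.48% of autosomal promoters).

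Deviations of same-numbered libraries correlated at -0.0133 in H2AK119ub1, -0.0396 in H3K27me3, 0.0975 in H3K4me3 and 0.0545 in H3K27ac. With 2 pairs per mark, this cannot settle whether the replicate numbers pair the libraries. With the replicate block, H2AK119ub1 rose at 12 members and fell at 7 (17.09% and 13.52% of autosomal promoters). H3K27me3 rose at 12 and fell at 11 (12.08% and 12.8%). H3K4me3 rose at 32 and fell at 12 (41.37% and 31.88%), and H3K27ac rose at 20 and fell at 16 (32.17% and 29.35%). Depth limits H3K27me3 most, its median member promoter holding 108 to 171 counts with each read counted about 3 times.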
